A study of Mus musculus with 3 samples.

Results

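The cells described here come from mouse medulloblastomas and were chosen because mRNA of one D-type cyclin was counted and mRNA of the other was not. The choice rests on the measured counts themselves and not on cell type, and 21 Ccnd1-only and 30 Ccnd2-only cells carried markers of other cell types, as given below. Among barcodes with at least 200 counts and at most 10% mitochondrial counts, a cell was called Ccnd1-only when it held at least 1 Ccnd1 count and 0 Ccnd2 counts, and Ccnd2-only in the opposite case. This gave 843 members among 1981 kept cells, out of 20959 deposited barcodes. The Ccnd1-only set held 264 cells (159, 8 and 97 in tumours 1, 2 and 3), and the Ccnd2-only set held 579 cells (258, 22 and 299). A further 265 cells held both mRNAs and 873 held neither.

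The 3 tumours came from mice of genotype hGFAP-Cre/SmoM2 on a C57BL/6 background, in which Cre recombinase under the human GFAP promoter turns on SmoM2, a constitutively active version of the Hedgehog transducer Smo. That promoter is also active in progenitors of glia, so glial cells of these mice can carry SmoM2 too. Every mouse was given palbociclib, an inhibitor of CDK4 and CDK6, as the nanoparticle formulation POx-palbo at 25 mg/kg, by intraperitoneal injection on 5 successive days from postnatal day 10, and its tumour was taken on postnatal day 16. All tumours thus share 1 treatment, untreated tumours are not analysed here, and each comparison below is between cells of the same tumours. Drop-seq, a droplet method that tags the 3′ ends of polyadenylated mRNA with a cell barcode, was used on papain-dissociated tissue.

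D-type cyclins bind CDK4 and CDK6 and switch on the kinases that phosphorylate the retinoblastoma protein, which then releases E2F factors to drive entry into S phase. Cyclin D1 (Ccnd1) and cyclin D2 (Ccnd2) are encoded by separate genes, and in cerebellar granule neuron progenitors both are induced by Hedgehog signalling. Palbociclib acts on the kinase that these cyclins activate.

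Depth limits what the set names mean. The 3 tables held 1150463, 248617 and 1324350 counts, and a median barcode held 84, 85 and 105; tumours 1 and 3 gave 813 of the 843 members. Among members, the median was 390, 309 and 308 counts in Ccnd1-only cells and 353, 270 and 331 in Ccnd2-only cells of tumours 1, 2 and 3. A single cyclin count put 70.1% of Ccnd1-only cells (185 cells) and 59.9% of Ccnd2-only cells (347 cells) in their set. Cells with both mRNAs were deeper, at 530, 391 and 462 counts, and cells with neither were shallower, at 294, 243 and 278. A count of 0 therefore does not show that a cell lacked the other cyclin. Ccnd1 and Ccnd2 also took 0.163%, 0.0695% and 0.112%, and 0.196%, 0.194% and 0.225%, of the counts of barcodes with only 50 to 99 counts, which mixes free RNA with shallow cells. Of all possible tumour pairs, tumours 1 and 2 shared 3 barcodes, 1 and 3 shared 8, and 2 and 3 shared 3.

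Just inside the depth limit, at 200 to 219 counts, 11.1% of 262 barcodes were Ccnd1-only and 29.8% Ccnd2-only; just outside it, at 180 to 199 counts, these were 12.01% and 20.4% of 383. At 9 to 10% mitochondrial counts, 15 of 88 barcodes (17.05%) were Ccnd1-only and 15 were Ccnd2-only. At 10 to 11%, 14.8% of 54 were Ccnd1-only and 22.2% Ccnd2-only.

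The 2 cyclins were not counted in separate cells. Ccnd1 was found in 36.6% of cells that held Ccnd2 in tumour 1 (149 of 407; exact binomial 95% interval 31.9 to 41.5%) and in 28.6% of cells that did not (24.9 to 32.5%). In tumour 3 the shares were 27.1% (22.8 to 31.6%) and 18.8% (15.6 to 22.5%), and in tumour 2 they were 18.5% (6.30 to 38.1%) and 12.1% (5.38 to 22.5%). After each cell was thinned to 200 counts, to set depth equal, the shares were 17.7% and 20.7% in tumour 1, 17.6% and 11.8% in tumour 2, and 14.9% and 13.2% in tumour 3. At equal depth the shares had no common direction over tumours, and their intervals overlapped in each. These shares involve the genes that defined the sets and carry no test, and their intervals cover counting error only.

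Few genes other than the cyclins passed the test between the sets. For each tumour the counts of each set were summed, which gave 73537, 2525 and 33862 counts in Ccnd1-only and 115295, 6828 and 117763 in Ccnd2-only cells once both cyclins were left out. Sums were compared by edgeR's quasi-likelihood test with the tumour as a block. Of 2619 genes with at least 30 counts over the 6 sums, 6 were higher in Ccnd1-only cells (0.229% of genes tested) and 1 was higher in Ccnd2-only cells (0.0382%) at a Benjamini-Hochberg adjusted p under 0.05, together 0.267%. At an unadjusted p under 0.05 there were 81 genes, or 3.09%. The genes higher in Ccnd1-only cells were the lipid carrier gene Apoe, the lysosomal protease genes Ctsd and Ctsb, the secreted matrix protein genes Spp1 and Sparc, and Oraov1. The gene higher in Ccnd2-only cells was Cacng2. The median log2 difference of all genes tested, Ccnd1-only minus Ccnd2-only, was -0.03. When cells carrying markers of glia, vessels or blood were left out, Apoe, Ctsd and Ctsb no longer passed, Spp1 and Sparc were too low to test, and Oraov1 still passed. Without tumour 1, 2 or 3 the genes higher in Ccnd1-only cells numbered 1, 9 and 0 and those higher in Ccnd2-only cells 0, 2 and 0, and DESeq2 called Apoe alone.

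**Figure D1:**
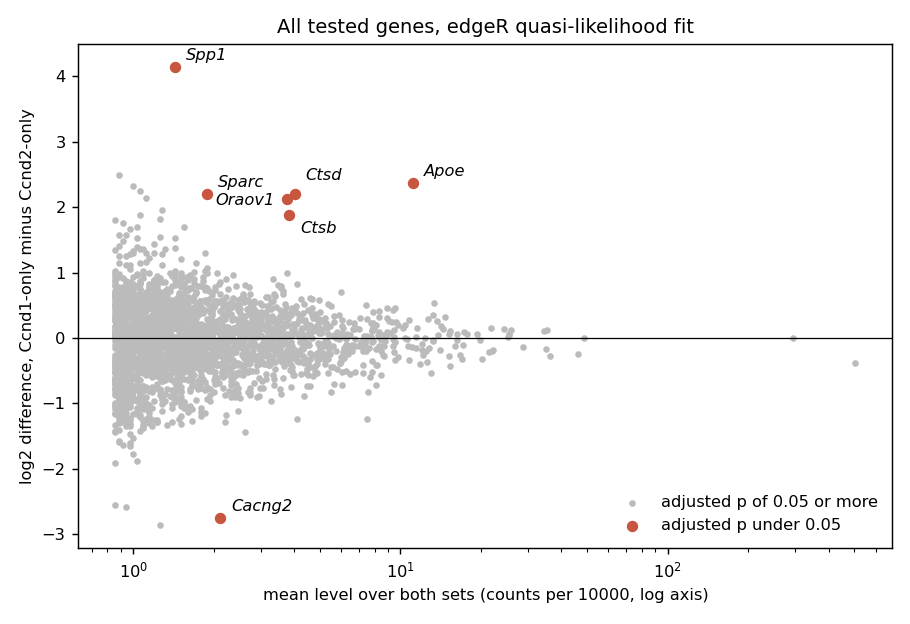
Log2 difference between the sets (Ccnd1-only minus Ccnd2-only, vertical axis) against mean level in counts per 10000 (horizontal log axis) for all 2619 genes tested, with the 7 genes past an adjusted p of 0.05 in red. Most genes lie around 0 with a spread that narrows at higher levels, 6 called genes lie above and Cacng2 lies below.

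Apoe had 173, 3 and 93 counts in the Ccnd1-only cells of tumours 1, 2 and 3, or 23.5, 11.9 and 27.5 per 10000 counts, and 61, 0 and 59 counts in the Ccnd2-only cells, or 5.29, 0 and 5.01 per 10000. The log2 difference was 2.37 (SE 0.28, edgeR adjusted p = 3.23e-14, higher in 3 of 3 tumours), and the direction in tumour 2 rested on 3 counts against 0. Cells with neither cyclin mRNA had 22.8, 38.2 and 33.3 per 10000, in the same range as or above Ccnd1-only cells. Cells with both had 4.34, 2.20 and 53.5, and 1 cell held 289 of the 384 Apoe counts of that set.

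The cathepsin genes had no counts in the 8 Ccnd1-only cells of tumour 2. Ctsd, which encodes the lysosomal aspartic protease cathepsin D, had 58, 0 and 36 counts against 23, 1 and 23, a log2 difference of 2.20 (SE 0.36, edgeR adjusted p = 1.179e-06, higher in 2 of 3 tumours). Ctsb, for the cysteine protease cathepsin B, had 75, 0 and 13 counts against 29, 0 and 17 (1.87, SE 0.38, edgeR adjusted p = 0.0003859, higher in 2 of 3). Per 10000, Ctsd stood at 7.89, 0 and 10.6 in Ccnd1-only cells, 2.58, 0 and 4.79 with both cyclins and 4.01, 13.9 and 13.2 with neither. Ctsb stood at 10.2, 0 and 3.84, then 2.58, 2.20 and 8.20, then 5.695, 19.4 and 6.65. For both genes cells with neither were above Ccnd1-only cells in tumours 2 and 3. The related genes Ctss (2.49, SE 0.69, edgeR adjusted p = 0.09133), a protease of microglia and macrophages, and Ctsl (1.95, SE 0.60, 0.2321) missed the threshold.

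Spp1, which encodes osteopontin, rested on 1 tumour. It had 2, 0 and 41 counts in Ccnd1-only against 2, 0 and 5 in Ccnd2-only cells, and its log2 difference was 4.14 (SE 0.69, edgeR adjusted p = 1.756e-06, higher in 2 of 3 tumours). Per 10000 it stood at 0.272, 0 and 12.1 in Ccnd1-only cells, 0, 0 and 0.773 with both cyclins and 0.281, 3.635 and 2.54 with neither. Sparc, a matrix glycoprotein gene of vessel and glial cells, had 36, 1 and 9 counts against 12, 0 and 8, higher in 3 of 3 tumours (2.20, SE 0.52, edgeR adjusted p = 0.01066). Its levels were 4.89, 3.96 and 2.66 per 10000 against 1.04, 0 and 0.679, and the direction in tumour 2 rested on 1 count in 8 Ccnd1-only cells.

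A few cells carried most of these counts on the Ccnd1-only side. Of 269 Apoe counts, 226 (84.0%) lay in the 5 highest of 264 cells, and the highest cell held 82. In the Ccnd2-only set, 120 Apoe counts were spread over 93 cells and no cell held more than 4. For Ctsd, 75 of 94 counts lay in 5 Ccnd1-only cells, and for Ctsb 72 of 88. One cell held 38 of the 43 Spp1 counts. Sparc had 31 of its 46 counts in 5 cells. Oraov1 was unlike these, with 90 counts over 76 cells and at most 3 in a cell.

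The cells with most Apoe also carried markers of other cell types. A cell was called another type when it held at least 3 counts from at least 2 genes of a marker list, which marked 21 of 264 Ccnd1-only and 30 of 579 Ccnd2-only cells. The same rule marked 28 of 265 cells with both cyclins and 66 of 873 with neither. In Ccnd1-only cells these calls were for astrocytes in 15, microglia or macrophages in 4, endothelium in 3, the oligodendrocyte lineage in 2 and mural cells or fibroblasts in 1, where a cell could have more than 1 call. In Ccnd2-only cells they were for astrocytes in 23, the oligodendrocyte lineage in 6, microglia or macrophages in 2 and erythroid cells in 1. The 21 called Ccnd1-only cells held 233 of 269 Apoe counts, 74 of 94 Ctsd, 75 of 88 Ctsb, 38 of 43 Spp1 and 34 of 46 Sparc counts, but 12 of 90 Oraov1 counts. The 30 called Ccnd2-only cells held 11 of 120 Apoe counts. None of these 6 genes is on a marker list.

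Without the called cells, Oraov1 alone remained past the threshold among genes higher in Ccnd1-only cells, with a log2 difference of 2.24 (edgeR adjusted p = 0.0001028, 2341 genes tested). Apoe then stood at -0.35 (adjusted p = 0.9998), Ctsd at 0.26 and Ctsb at -0.37, while Spp1 and Sparc had too few counts left to be tested. In that fit 48 genes had an unadjusted p under 0.05. When each cell was thinned to 200 counts, so that no deep cell could dominate a sum, Apoe gave 1.25 (adjusted p = 0.6134) and Oraov1 2.18 (0.001473). Apoe and both cathepsin genes thus passed only with the cells that carried markers of other types in the sums.

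**Figure D2:**
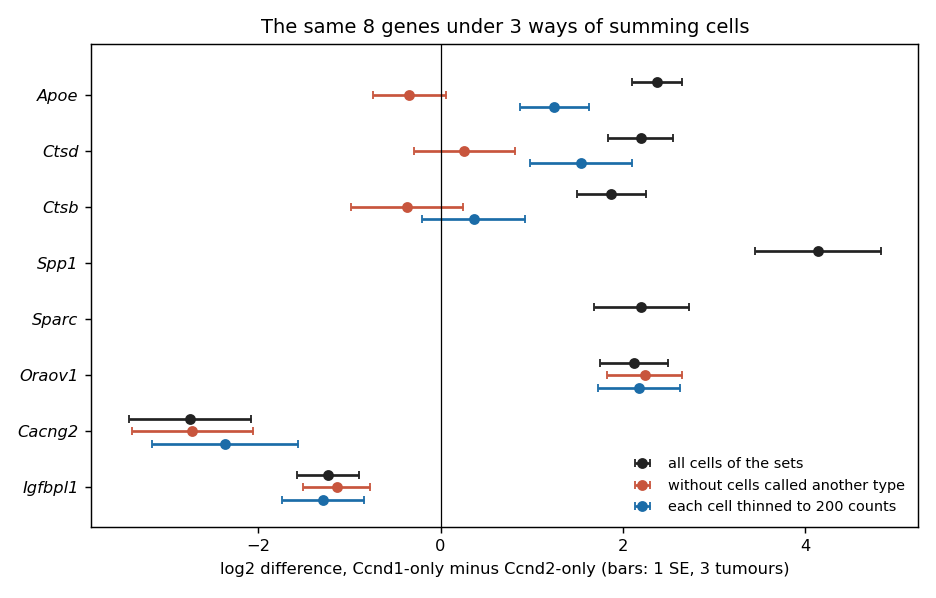
Log2 difference, Ccnd1-only minus Ccnd2-only (points, with bars of 1 SE from the edgeR fit on 3 tumours), for 8 genes. Values are shown with all cells of the sets (black), without cells called another type (red) and with each cell thinned to 200 counts (blue). Apoe, Ctsd and Ctsb move to within about 1 SE of 0 in red, Oraov1 and Cacng2 keep their place, and Spp1 and Sparc have no red or blue point because too few counts were left.

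The marker lists were also summed over all cells of each set. Microglia and macrophage markers took 0.141%, 0% and 0.142% of counts in Ccnd1-only cells of tumours 1, 2 and 3 and 0.0295%, 0.0586% and 0.0340% in Ccnd2-only cells. They took 0.0364%, 0% and 0.277% in cells with both cyclins and 0.102%, 0.485% and 0.157% in cells with neither. Of 15 such markers, Cd74 was at 0 in Ccnd1-only cells, and Cd74, Csf1r and Trem2 were at 0 in Ccnd2-only cells. Endothelial markers took 0.120%, 0% and 0.0236% against 0.00347%, 0% and 0.00510%, and 7 of 11 of them, among them Cldn5, Kdr and Flt1, were at 0 in Ccnd2-only cells. Their share was 0.00586%, 0.859% and 0.0866% in cells with both and 0.0330%, 0% and 0.0149% in cells with neither. High shares of these 2 lists were therefore not particular to Ccnd1-only cells. Cldn5, which encodes the tight junction protein claudin 5, had 25 counts (22 in tumour 1 and 3 in tumour 3) against 0. Its level was 18.2-fold higher if the set without counts is given an assumed floor of 3 counts in all. Without that floor the lower 95% counting limit was 13.7-fold, which takes the counts as independent of each other. Cldn5 had too few counts to be tested above. With no filter on low counts it passed as higher in Ccnd1-only cells (log2 difference 6.45, edgeR adjusted p = 0.001306, higher in 2 of 3 tumours). It entered that fit only through its Ccnd1-only counts and was picked after its values were seen, so this call gives no support. Only 3 Ccnd1-only cells were called endothelial, 2 in tumour 1 and 1 in tumour 3, against 0 Ccnd2-only cells. Astrocyte markers took 0.299%, 0.0792% and 0.124% against 0.188%, 0.132% and 0.126%, so that only tumour 1 was higher. All 4 neutrophil markers were at 0 in both sets. Of 5 tested astrocyte genes and 2 tested microglial genes 0 passed in edgeR, with 3 and 2 at an unadjusted p under 0.05; Sparcl1 stood at 0.81 (SE 0.38), Sox9 at 0.77 (SE 0.42), Slc1a2 at -0.71 (SE 0.34) and Lyz2 at 1.88 (SE 0.64).

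**Figure D3:**
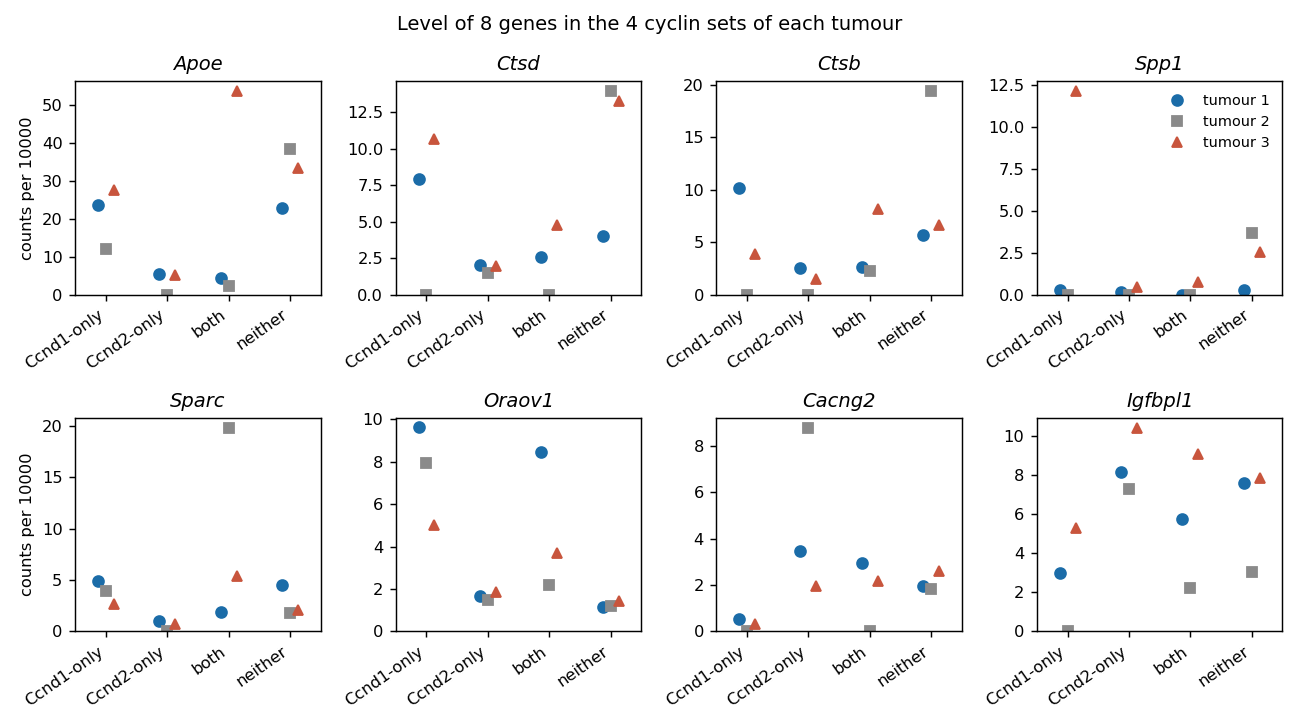
Level in counts per 10000 of the 7 called genes and Igfbpl1 in Ccnd1-only cells, Ccnd2-only cells, cells with both and cells with neither (horizontal axis), 1 point per tumour. Apoe is high in Ccnd1-only cells and in cells with neither, while Oraov1 is high in the sets that hold Ccnd1 in tumours 1 and 3, and Cacng2 is low in Ccnd1-only cells.

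Oraov1, listed by RefSeq under its current name LTO1 and encoding a factor for maturation of an iron-sulphur protein of the ribosome pathway, kept its call both without cells called another type and after thinning. It had 71, 2 and 17 counts in Ccnd1-only cells, or 9.65, 7.92 and 5.02 per 10000, and 19, 1 and 22 in Ccnd2-only cells, or 1.65, 1.47 and 1.87. The log2 difference was 2.12 (SE 0.37, edgeR adjusted p = 9.857e-06, higher in 3 of 3 tumours), and the direction in tumour 2 rested on 2 counts against 1. Cells with both cyclins had 8.45, 2.20 and 3.71 per 10000 and cells with neither had 1.13, 1.21 and 1.42, so that Oraov1 was low in every set without Ccnd1.

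In the mouse GRCm38 annotation the Oraov1 gene lies next to Ccnd1 on the opposite strand, and the gene models overlap at the 3′ end of Ccnd1, where Drop-seq reads fall. Whether the counting used strand is not given in the sources used here, and without it reads of the 2 genes there cannot be told apart. Since Ccnd1 counts chose the cells, the Oraov1 difference is not known to be separate from the rule. Ccnd1-only cells held 0.314, 0.143 and 0.127 Oraov1 counts per Ccnd1 count in tumours 1, 2 and 3, and cells with both held 0.303, 0.100 and 0.139. The ratio was thus close between these sets within tumours 1 and 3 and higher in tumour 1. The gene model that overlaps the 3′ end of Ccnd2, Gm43126, was not analysed here.

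Grouped by Ccnd1 counts in the cell, Oraov1 in all kept cells of tumour 1 stood at 1.36 per 10000 with 0 Ccnd1 counts (exact Poisson 95% interval 0.945 to 1.89), 6.37 with 1 (4.89 to 8.17), 11.9 with 2 (8.69 to 15.9) and 14.7 with 3 or more (10.3 to 20.4). In tumour 3 it stood at 1.63 (1.17 to 2.21), 4.20 (2.69 to 6.25), 3.88 (1.77 to 7.37) and 4.28 (1.85 to 8.44). Oraov1 per Ccnd1 count was 0.309, 0.317 and 0.298 in cells of tumour 1 with 1, 2 and 3 or more Ccnd1 counts, and 0.166, 0.105 and 0.105 in tumour 3. In tumour 1 Oraov1 went up in step with Ccnd1, whereas in tumour 3 the intervals of cells with 1 or more Ccnd1 counts overlapped. These intervals cover counting error only, and tumour 2 had 13 cells with Ccnd1 and 3 Oraov1 counts in them.

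**Figure D4:**
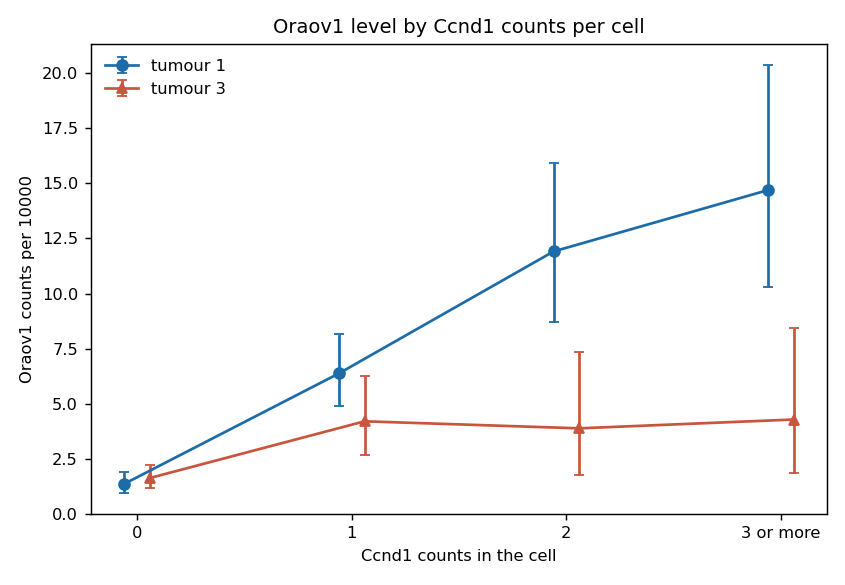
Oraov1 level in counts per 10000 (vertical axis) by the number of Ccnd1 counts in the cell (horizontal axis), in all kept cells of tumours 1 and 3, with exact Poisson 95% intervals that cover counting error only. Tumour 1 goes from 1.36 to 14.7 and tumour 3 from 1.63 to 4.28, with most of the step in tumour 3 between 0 and 1 Ccnd1 count.

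Cacng2, which encodes stargazin, a partner of AMPA-type glutamate receptors needed for their surface delivery in granule neurons, was the gene called higher in Ccnd2-only cells. It had 4, 0 and 1 counts in Ccnd1-only cells (0.544, 0 and 0.295 per 10000) and 40, 6 and 23 in Ccnd2-only cells (3.47, 8.79 and 1.95 per 10000). The log2 difference was -2.75 (SE 0.67, edgeR adjusted p = 0.01513, lower in 3 of 3 tumours). In tumour 2 the 8 Ccnd1-only cells summed to 2525 counts, so the 0 there carries little weight. The 69 Cacng2 counts in Ccnd2-only cells came from 56 cells with at most 3 each, and 0 lay in cells called another type. Cells with both cyclins had 2.93, 0 and 2.17 per 10000 and cells with neither 1.97, 1.82 and 2.62. In tumours 1 and 3 the Ccnd1-only set was the lowest of the 4 sets, and in tumour 3 the Ccnd2-only set was below cells with both and with neither. The size held without cells called another type (-2.72), but its adjusted p was then 0.05291, and with a minimum of 100 counts per barcode the difference was -0.89 (0.9998).

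Next in order of p among genes leaning toward Ccnd2-only cells was Igfbpl1, a gene of the insulin-like growth factor binding protein family, which missed the threshold. It had 22, 0 and 18 counts (2.99, 0 and 5.32 per 10000) against 94, 5 and 123 (8.15, 7.32 and 10.4). Its log2 difference was -1.23 (SE 0.34, edgeR adjusted p = 0.09218, lower in 3 of 3 tumours). Its 222 counts in Ccnd2-only cells came from 149 cells. With genes of at least 60 counts only, it passed (-1.22, adjusted p = 0.04214), but with a minimum of 100 counts per barcode it stood at -0.42 (0.9998) and with cells thinned before sets and sums at -0.57 (0.9992). Further genes that leaned the same way without passing were Nap1l4 (-1.23, SE 0.41), a histone chaperone gene, the neuronal intermediate filament gene Ina (-1.44, SE 0.51), the imprinted gene Nnat (-0.83, SE 0.33), the RNA-binding protein gene Mex3a (-0.83, SE 0.36) and the homeobox gene Meis1 (-1.28, SE 0.55). For 2 others the Ccnd1-only set held 2 counts each. The noncoding B230312C02Rik had 42 counts in Ccnd2-only cells, 30 of them in tumour 3, or 9.62 times the Ccnd1-only level (95% counting interval 2.503 to 82.1). It did not pass (edgeR adjusted p = 0.3851). Utp11l had 31 counts, 7.10 times the level (1.81 to 61.2), and did not pass (edgeR adjusted p = 0.8197). In tumour 2 it went the other way, with 1 Ccnd1-only count against 0. These 2 intervals pool the tumours and cover counting error only. On the other side, the immediate early gene Fosb stood at 2.25 (SE 0.65, adjusted p = 0.1453) without passing.

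Genes of the CDK4 and CDK6 pathway did not pass in either direction. Of 32 listed genes 7 had enough counts to be tested, 3 with a positive and 4 with a negative difference and a median of -0.23, and 0 passed in edgeR, also at an unadjusted p under 0.05. Cdk4 had 31, 0 and 16 counts against 61, 2 and 61 (-0.23, SE 0.36). Cdk6 had 34, 0 and 12 against 61, 1 and 17 (0.25, SE 0.39). For both kinases the difference was smaller than its SE.

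Among their inhibitors, Cdkn1b, which encodes p27, had 18, 1 and 13 counts against 50, 3 and 50, lower in 3 of 3 tumours without passing (-0.49, SE 0.39), and Cdkn2d, for p19, had 5, 0 and 1 against 15, 0 and 12 (-1.07, SE 0.78). Downstream, the E2F activator gene E2f3 had 5 counts against 25 in all (-1.15, SE 0.80). Tfdp2, for an E2F partner, stood at 0.11 (SE 0.58) and the cyclin E gene Ccne2 at 0.21 (SE 0.61). The remaining D-type cyclin gene, Ccnd3, was too low to test, with 11 counts in each set, or 1.00 per 10000 in Ccnd1-only and 0.459 in Ccnd2-only cells, a ratio of 2.18 (95% counting interval 0.858 to 5.55). At these depths differences of the size of the SEs were not detectable.

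Hedgehog pathway genes, which act upstream of both cyclins, were likewise not separated. Of 18 listed genes 8 were tested, 5 positive and 3 negative with a median of 0.02, and 0 passed in edgeR or at an unadjusted p under 0.05. On the receptor side, Boc (1.15, SE 0.64) and Gas1 (0.01, SE 0.57) encode co-receptors of Hedgehog ligands. Gli1, the transcription factor and target whose mRNA reads pathway output, had 13, 0 and 3 counts against 9, 0 and 10 (0.82, SE 0.66), and Hhip, a target that binds the ligand, had 11, 0 and 4 against 9, 0 and 8 (0.92, SE 0.68). Mycn, a target that drives progenitor growth, had 29, 0 and 9 against 56, 4 and 57 (-0.53, SE 0.37), and the secreted Wnt antagonist gene Sfrp1 had 98, 1 and 55 against 166, 7 and 258 (-0.26, SE 0.26). Csnk1a1, a kinase gene of the pathway, stood at 0.04 (SE 0.29). Ptch1 had 7 counts against 8 and Smo 1 against 4, too low to test.

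Cell cycle genes were close between the sets. Of 41 tested S phase genes 23 were positive and 18 negative (median 0.07), and of 53 G2/M genes 26 were positive and 27 negative (median -0.03); 0 of either list passed in edgeR, with 3 and 0 at an unadjusted p under 0.05. Those 3 were Casp8ap2 (0.82), the helicase gene Mcm3 (0.96) and Rrm1 (0.90), which encodes a subunit of ribonucleotide reductase. S phase genes took 1.15%, 1.11% and 1.23% of counts in Ccnd1-only and 1.06%, 0.879% and 1.14% in Ccnd2-only cells, higher in 3 of 3 tumours. In cells with neither cyclin the share was 0.918%, 0.733% and 0.856%, below the Ccnd1-only and Ccnd2-only sets in every tumour. Cells with both cyclins had 1.21%, 0.727% and 1.206%, which in tumour 2, with 5 such cells, was also below those sets. With 3 tumours an exact paired permutation test cannot give a p below 0.25, so no test of these shares was made. G2/M genes took 1.52%, 2.69% and 2.04% against 1.41%, 2.74% and 2.18%, with no common direction.

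Single cycle genes with many counts gave the same picture. Top2a, for the topoisomerase that untangles chromosomes, had 112, 3 and 51 counts against 122, 13 and 204 (0.14, SE 0.26). The proliferation marker gene Mki67 had 90, 2 and 46 against 137, 14 and 201 (-0.19, SE 0.26). The condensin gene Smc2 had 126, 4 and 41 against 136, 2 and 156 (0.35, SE 0.27). Dek (0.29), Cbx5 (0.28) and the histone chaperone gene Nasp (-0.12) also lay within about 1 SE of 0.

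Genes of progenitor and neuronal state had mostly small differences too, and 0 of them passed in edgeR outside Cacng2, which is on none of the lists. The progenitor list had 9 positive and 10 negative of 19 tested (median -0.12), the granule neuron list 5 and 7 of 12 (-0.24), the synapse list 2 and 8 of 10 (-0.15) and the axon growth and migration list 8 and 26 of 34 (-0.30), beside a median of -0.03 and 47.6% positive among all genes tested. At an unadjusted p under 0.05 there was 1 gene each on the progenitor, granule neuron and axon lists, Meis1, the adhesion gene Cntn2 (26 counts against 99, -0.85) and the microtubule gene Map6 (4 against 31, -1.77), and 0 on the synapse list.

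The axon list leaned toward Ccnd2-only cells, but its share of counts did so in tumours 1 and 3 only, at 1.57%, 2.10% and 1.55% in Ccnd1-only against 1.98%, 1.83% and 1.67% in Ccnd2-only cells. The differentiation factor gene Neurod1 had 69, 3 and 55 counts against 167, 9 and 235, lower in 3 of 3 tumours without passing (-0.44, SE 0.26). Map1b, a microtubule-associated gene of growing axons, had 69, 6 and 33 against 196, 10 and 142 (-0.53, SE 0.27). Tuba1a stood at -0.14 (SE 0.24), Marcks at 0.06 (SE 0.25), Rbfox3 at 0.40 (SE 0.34) and Snap25 at -0.57 (SE 0.39). Of progenitor transcription factor genes, Nfib stood at -0.27 (SE 0.25), Nfia at 0.12 (SE 0.24) and Tcf4 at -0.28 (SE 0.26), and Atoh1, which specifies granule neuron progenitors, had 17 counts against 39 (0.07, SE 0.57). Gria2 (-0.07), Cadm1 (-0.12) and Syt11 (-0.10), of the synapse list, were near 0.

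Lists of growth and metabolism centred near 0. Cytosolic ribosomal protein genes had 29 positive and 21 negative of 50 (median 0.05), nuclear oxidative phosphorylation genes 35 and 30 of 65 (0.07), nucleolar and MYC-driven genes 15 and 21 of 36 (-0.03), mTOR and PI3K genes 4 and 5 of 9 (-0.10) and chromatin genes 11 and 13 of 24 (-0.01). In edgeR 0 of these passed, with 0, 0, 1, 1 and 0 at an unadjusted p under 0.05, namely the RNA modification gene Dkc1 (0.80) and the PI3-kinase subunit gene Pik3r1 (1.76). Hsp90ab1, a chaperone gene among the nucleolar and MYC-driven genes, had 298, 5 and 151 counts against 609, 19 and 536 (-0.24, SE 0.25), and the nucleolar gene Ncl had 98, 9 and 67 against 177, 10 and 210 (0.06, SE 0.25). Mitochondrially encoded genes took 5.16%, 6.89% and 5.28% of counts in Ccnd1-only and 4.68%, 6.52% and 4.70% in Ccnd2-only cells, higher in 3 of 3 tumours. With mitochondrial counts left out of the sums, 6 genes were again higher and 1 lower.

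Immediate early and heat shock genes had a median of 0.33, with 6 of 10 positive and 0 past the threshold. In edgeR 2 of them, Fosb and Jun, had an unadjusted p under 0.05. Jun, a subunit gene of the AP-1 transcription factor, had 126, 5 and 51 counts against 139, 1 and 145, higher in 3 of 3 tumours without passing (0.54, SE 0.26), and the growth response gene Egr1 had 39, 0 and 25 against 46, 0 and 54 (0.59, SE 0.34). The WNT list had 2 positive and 5 negative of 7 (median -0.30) and the Notch and ID list 2 and 2 of 4 (0.05), with Hes1, a Notch effector, at 0.73 (SE 0.49) and Id2, which blocks differentiation factors, at 0.52 (SE 0.37). Of noncoding RNAs, Malat1 stood at -0.38 (SE 0.31). In edgeR 0 genes of these 3 lists passed or had an unadjusted p under 0.05.

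**Figure D5:**
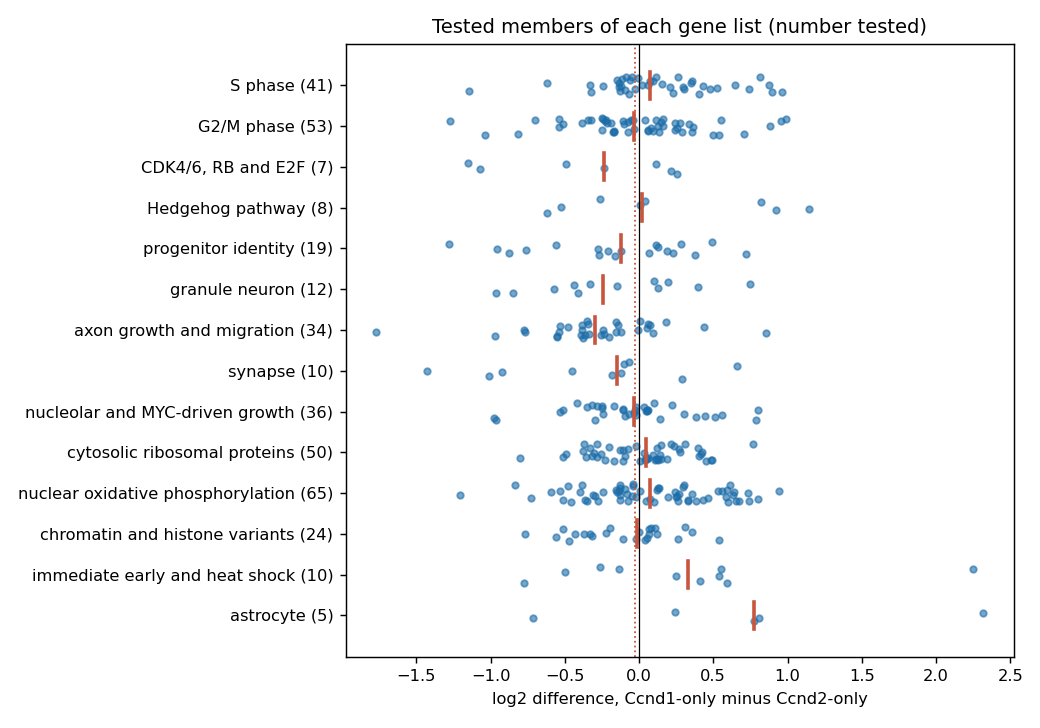
Log2 difference, Ccnd1-only minus Ccnd2-only (horizontal axis), of each tested gene (blue points) of 14 lists, with the list median (red bar) and the median of all genes tested (dotted line, -0.03). Points are moved up or down at random for legibility, and list medians lie between -0.30 and 0.77, with the axon list at -0.30 and the 5 tested astrocyte genes at 0.77.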

How the data were processed

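The authors deposited 1 table of counts per tumour, holding whole-number molecule counts per gene and barcode from Drop-seq libraries, per the labels' protocols. STAR, Cell Ranger and the build GRCh38 are named in the submitters' processing notes, with no version or role. However, 98.3% of gene symbols matched mouse names, so no coordinates were used, and GRCm38 gene models served only to name neighbours of the cyclin genes. Every deposited barcode holds at least 50 genes.

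The cell sets and the 26 gene lists were chosen with earlier results of these data known. Counts were summed per tumour and set without Ccnd1 and Ccnd2 and fitted with edgeR 4.0.16 (R 4.3.3; TMM scaling, tumour as block, genes with at least 30 counts, Benjamini-Hochberg threshold 0.05), after checking the script on simulated counts. The block pairs both sets of the same animal. Named genes were up to 10 per direction past the threshold with the same direction in 3 of 3 tumours, filled to 10 by lowest p, all tested genes of the CDK4/6 and Hedgehog lists and the 3 most counted of other lists. Other genes given, such as Ccnd3, Cntn2, Map6, Mcm3, Cldn5 and Atoh1, were chosen after their values were seen. Some genes that the rule names are not reported here. Alternatives used DESeq2 1.42.0, limma 3.58.1 and Scrublet in scanpy 1.11.5 at an expected doublet rate of 6%; doublets were kept otherwise. The p-values rest on 6 sums from 3 animals, and the spread of each gene was drawn toward a trend over all genes tested. A small p-value therefore does not show that the 3 animals gave like values.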

Additional observations from a re-analysis of the deposited data

How the results depend on the processing

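Of 6 genes higher in Ccnd1-only cells and 1 higher in Ccnd2-only cells, the counts depended on depth and on which cells were summed. DESeq2 called 1 (Apoe) and 0, with 14 genes at an unadjusted p under 0.05. With limma-voom 2 were higher in Ccnd2-only cells. Leaving out 1 tumour gave 0 to 9 genes higher in Ccnd1-only cells and 0 to 2 in Ccnd2-only cells: 1 (Spp1) and 0 without tumour 1, 9 and 2 without tumour 2, and 0 and 0 without tumour 3 (5 at an unadjusted p under 0.05). Fits without tumour 1 or 3 rest largely on the other of the 2. Without the replicate block, which pairs the sets within a tumour, 4 genes were higher in Ccnd1-only and 0 in Ccnd2-only cells. A mitochondrial limit of 5% gave 3 and 0, thinning to 200 counts before the sums 1 and 0, thinning before sets and sums 1 and 0, leaving out deep cells 3 and 1, leaving out cells called another type 1 and 0, and leaving out cells with 2 counts of another type's list 1 and 0. Genes higher in Ccnd2-only cells were 0 with no filter on low counts (206 at an unadjusted p under 0.05), 2 with at least 60 counts per gene, 0 with minimums of 500 or 100 counts per barcode, and 0 where sets needed 2 counts of their cyclin. On the Ccnd1-only side these 5 alternatives gave 5 (Cldn5 among them), 5, 5, 7 and 5. The last of them and the one with 2 counts of another type's list were added after seeing the data.

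Apoe reversed to -0.35 without cells called another type and -0.27 without cells with 2 counts of another type's list. Ctsb reversed to -0.37 and -0.24 there, and to -0.33 when cells were thinned before sets and sums. The cause of these reversals and of the other changes was not tested. Oraov1 lay between 1.49 and 2.56 over 20 alternatives and kept its call in 15, while Cacng2 lay between -3.66 and -0.89 and kept it in 7. Of 1544 values of the 89 named genes under alternatives, 1361 kept their direction and stayed called or uncalled. Only 7 of these genes had passed above, so most of the values belong to genes that had not passed. Of 40 numbers of genes called under alternatives, 25 moved, by a factor over 1.5 or to 0.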

Other observations

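The transgene transcript listed as CRE-RECOMBINASE, picked after its values were seen, had 25 counts in Ccnd1-only and 19 in Ccnd2-only cells, 2.27 and 0.792 per 10000, and did not pass (log2 difference 1.54, SE 0.61, edgeR adjusted p = 0.9997).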
